A study of Mus musculus with 49 samples.

Results

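The genes of red blood cell formation and of heme synthesis were followed through 49 RNA sequencing libraries from 6 tumor-bearing mice. They were chosen by name: 33 genes were listed, 32 of them matched a row among 55487 genes, and summing the copies of alpha globin (Hba-a1 with Hba-a2) and of beta globin (Hbb-bs with Hbb-bt) left 30 measured features. Ahsp, which encodes the chaperone of alpha globin, was not analysed here. The rule names genes and uses no measured value, but the list was drawn up with earlier results of these data known.

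All 6 animals were HuHER2 mice, which carry a human HER2 transgene and had grown palpable mammary tumors. Neither the promoter of the transgene nor the strain background is named in the labels, and palpation began at the age of 7 months. BP mice (3) received 1 intravenous injection of BP, an iron oxide nanoparticle preparation, at 5 mg Fe per mouse, and PBS mice (3) received PBS. The series' design text places the sacrifice 7 days after the injection, while a treatment label names 31 days. Nanoparticle-associated cells (NA cells) were drawn by magnet from a digested section of the organs of BP mice, which gave 13 libraries: 3 each from bone marrow, spleen, liver and tumor, and 1 from lymph node. Undigested bulk tissue of bone marrow, spleen, liver, lymph node, lung and tumor gave 36 libraries, 3 from BP mice and 3 from PBS mice per organ. NA cells and BP bulk tissue of the same number came from the same mouse, and organs of 1 PBS mouse also shared their animal.

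Red blood cells mature from nucleated precursors in the bone marrow and, in mice, also in the red pulp of the spleen. Precursors switch on a small set of transcription factors led by Gata1, Tal1 and Klf1, then the heme pathway and the globins that fill the mature cell, and a membrane skeleton of spectrin, ankyrin and band 3 that holds its shape. Mature red cells of mice have no nucleus but young ones keep globin messenger RNA, so blood within an organ also brings globin transcripts into a library. The spleen and liver are in addition the organs whose macrophages remove aged red cells and injected iron particles. Heme is made in every cell, and the liver is another large producer.

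Total expected counts per library ran from 9362264 to 19734849, so that 3 counts, the most that a value of 0 allows, equalled 0.152 to 0.32 CPM, the count of a gene scaled by the total of its library. Intervals and floors of this kind cover counting error only. NA cells of liver stood apart, with 48.2 to 57.2% of counts from mitochondrial genes against 5.67 to 7.06% in BP bulk liver. The bulk tumor of BP mouse 1 also stood apart, at 19.5% of counts from mitochondrial genes, against 3.06 to 8.33% in the other 5 bulk tumors. The 10 genes of the dissociation response (stress genes such as Fos and the heat shock genes, which rise when tissue is digested) summed to 1227 to 1267 CPM in NA cells of bone marrow, against 163 to 214 CPM in BP bulk bone marrow. Their sum was 3228 to 10916 CPM in NA cells of spleen and 203 to 273 CPM in BP bulk spleen. Digestion separates every NA cell library from its bulk tissue, so its effect and that of the particles cannot be told apart. In bulk samples, fewer cells of a type and less RNA per cell cannot be told apart either.

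The globin copies were summed because their coding sequences hardly differ. Over 429 coding bases the alpha copies of the GENCODE M21 annotation differ at 1 base (99.8% identical), and over 444 coding bases the beta copies also differ at 1 base (99.8% identical). The stretch that holds the differing base, in capitals, is shown for each pair (coding bases 351 to 410 for alpha and 385 to 444 for beta).
Hba-a1: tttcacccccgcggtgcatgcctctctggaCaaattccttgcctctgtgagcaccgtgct
Hba-a2: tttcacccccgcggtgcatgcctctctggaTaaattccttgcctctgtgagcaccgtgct
Hbb-bs: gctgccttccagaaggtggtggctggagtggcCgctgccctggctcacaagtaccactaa
Hbb-bt: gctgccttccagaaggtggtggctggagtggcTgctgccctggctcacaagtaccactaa
Reads over the shared bases cannot be assigned to 1 copy, so only the sums are reported.

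The start of the Alas2 messenger RNA holds the element through which iron is known to control its translation. Alas2 encodes the erythroid form of aminolevulinate synthase, which controls the pace of heme synthesis in red cell precursors, and iron regulatory proteins hold its translation back when iron is scarce. The loop motif CAGTG, in capitals, was found at chrX:150547459-150547484 on the plus strand (GRCm38), in the 5′ untranslated part of the annotated transcript.
Alas2 element: tggttcgtcctCAGTGcagggcaaca
Translation was not measured in these libraries, and the values of Alas2 below are transcript levels.

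Promoters were searched for the letters AGATAA, the usual core bound by Gata1, and CACCC, the core of the motif bound by Klf1 and other factors of its family, on both strands. The window was the 250 bases before the RefSeq start, and 25 members had an entry. AGATAA stood in 8 of the 25 member promoters (32.0%), against 3090 of 27025 genes (11.4%). CACCC stood in 19 of the 25 (76.0%), against 14738 genes (54.5%), and both stood in 7 of the 25 (28.0%), against 1362 genes (5.0%). Such matches are descriptions of the letters and not of binding. The adult beta globin, heme pathway and blood group promoters below (RefSeq, GRCm38.p6) show the matches in capitals, TTATCT and GGGTG being the same letters read from the other strand.
Hbb-bs, chr7:103828097-103828178, minus strand: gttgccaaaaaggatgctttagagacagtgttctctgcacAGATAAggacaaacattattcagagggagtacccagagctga
Hbb-bt, chr7:103813997-103814146, minus strand: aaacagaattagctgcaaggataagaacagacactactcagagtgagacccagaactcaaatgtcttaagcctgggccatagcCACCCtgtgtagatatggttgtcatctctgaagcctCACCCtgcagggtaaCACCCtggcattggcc
Alas2, chrX:150547225-150547374, plus strand: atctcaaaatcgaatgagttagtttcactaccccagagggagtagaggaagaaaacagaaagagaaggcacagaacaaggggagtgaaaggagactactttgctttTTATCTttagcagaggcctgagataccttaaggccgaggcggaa
Kel, chr6:41704340-41704489, minus strand: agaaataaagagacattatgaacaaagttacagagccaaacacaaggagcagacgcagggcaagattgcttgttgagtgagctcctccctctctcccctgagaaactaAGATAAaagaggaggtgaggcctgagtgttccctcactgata
Rhd, chr4:134864386-134864535, plus strand: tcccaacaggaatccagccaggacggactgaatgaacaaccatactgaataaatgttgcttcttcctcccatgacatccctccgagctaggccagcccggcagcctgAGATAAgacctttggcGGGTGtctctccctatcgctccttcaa
Hbb-bt had no AGATAA in the window, whereas Hbb-bs had 1 in the stretch shown. Hbb-bs, Alas2 and Kel also had CACCC in the window searched, outside the stretches shown. Bases that lie inside an annotated transcript were left out of the printed stretches, which were cut to at most 150 bases.

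Across the bulk organs, all 30 features had their highest median in bone marrow. The next highest was spleen for all of them except Alad and Cpox, heme pathway enzymes whose next highest organ was liver. Alpha globin (Hba-a1, ENSMUSG00000069919, and Hba-a2, ENSMUSG00000069917, both on chromosome 11) had 77715, 85884 and 112727 CPM in bone marrow of BP mice 1, 2 and 3, against 84689, 90334 and 93672 CPM in PBS mice. In spleen it had 12138, 47606 and 23356 CPM in BP mice, against 13081, 39386 and 52399 CPM in PBS mice. The spleen values of the 3 mice of each treatment thus differed among themselves by more than the treatments did.

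Lung held globin transcripts, while Slc4a1 and Klf1 were low there. Alpha globin had 9477, 27719 and 11054 CPM in lungs of BP mice and 1495, 27714 and 20721 CPM in lungs of PBS mice. Slc4a1, which encodes band 3, the anion exchanger of the red cell membrane (ENSMUSG00000006574, chr11:102348824-102366203, GRCm38), lay between 3.95 and 18.0 CPM in the same 6 lungs, and Klf1, an activator of the beta globin gene, between 0.162 and 0.973 CPM. Other genes of these roles were not all low, since Epb41, the protein that joins spectrin to actin, had 65.3 to 124 CPM in lung and Tal1 had 8.76 to 19.1 CPM. Alas2 lay between 32.8 and 449 CPM there, lowest in the lung of PBS mouse 1, which was also lowest for alpha globin. The number of alpha globin counts per Slc4a1 count was 378 to 2414 in lung and 20.4 to 27.9 in bulk bone marrow.

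Liver, lymph node and tumor held little globin. The medians of alpha globin over 6 bulk libraries were 535 CPM in liver, 596 CPM in lymph node and 290 CPM in tumor. Main transcripts of other organs were found at low levels too. The hepatocyte gene Alb had 125 to 200 CPM in the bulk tumors, against 55774 to 72537 CPM in bulk liver. Sftpc of lung epithelium had 30.3 to 48.6 CPM in BP bulk liver, against 17852 to 27501 CPM in BP lung. Whether the low globin levels share the origin of these transcripts was not tested. One tumor, that of BP mouse 2, held 1452 CPM, while the other 5 tumors held 154 to 347 CPM. Heme pathway enzymes were well represented in bulk liver, with 247 to 404 CPM of Alad, 170 to 225 CPM of Cpox and 122 to 144 CPM of Fech, the ferrochelatase that inserts iron. Klf1 had 4.53 to 8.96 CPM in bulk liver, where Gata1 stayed at or under 0.338 CPM.

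**Figure D1:**
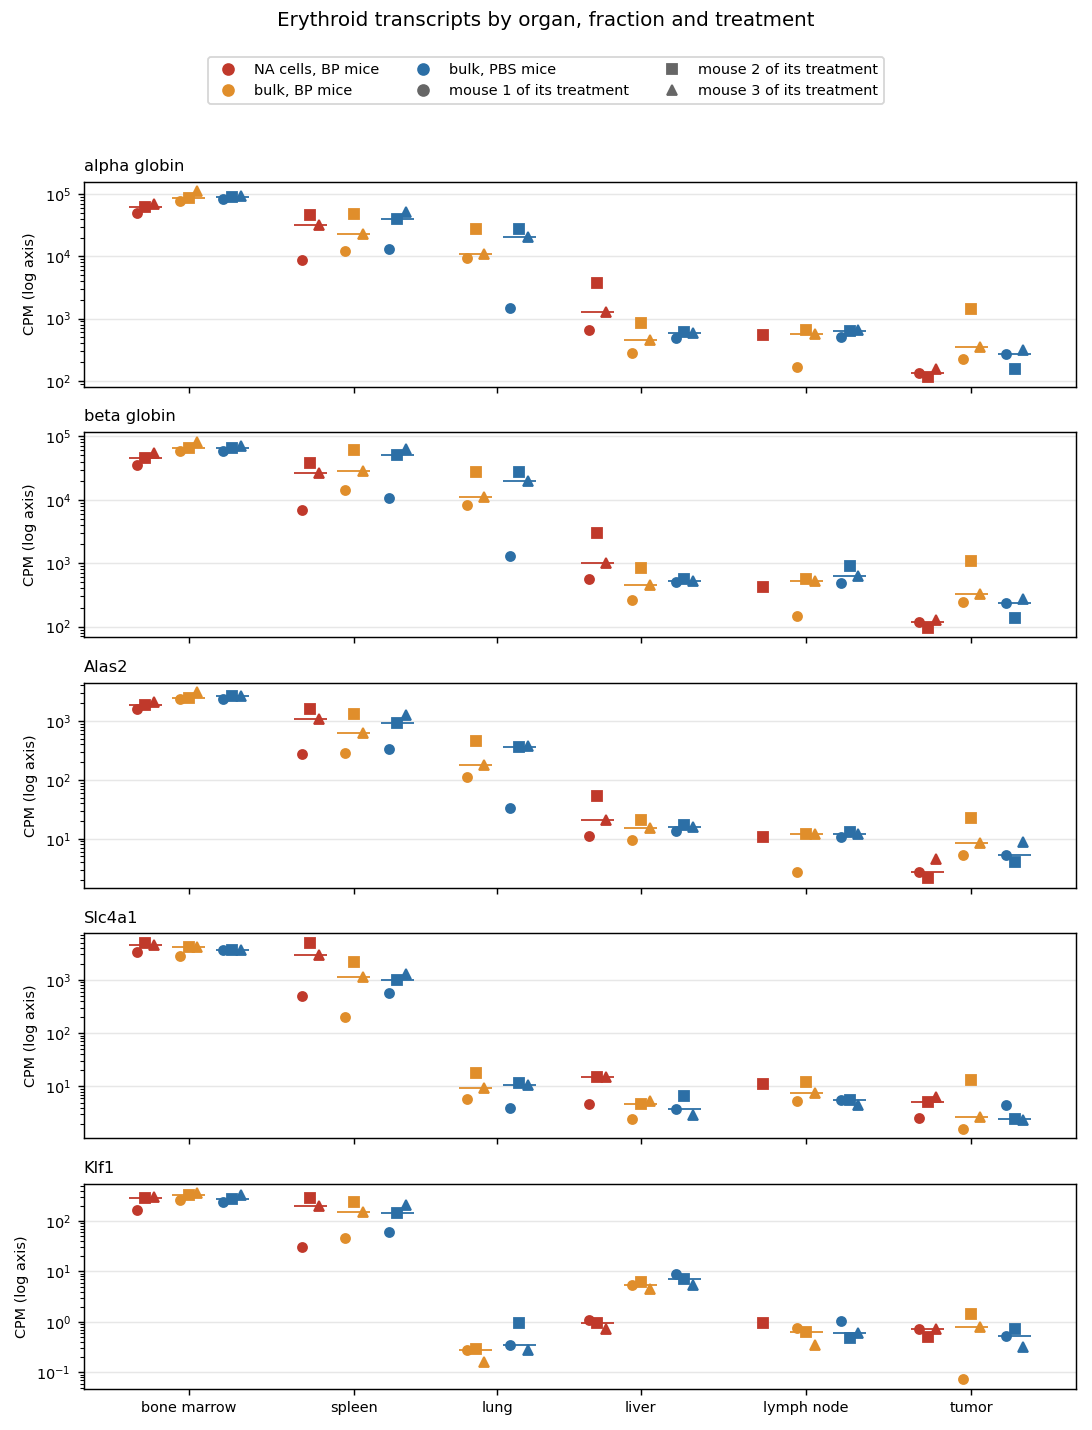
Levels of alpha globin, beta globin, Alas2, Slc4a1 and Klf1 in each library, in CPM of the library total on log axes, by organ. Points are mice and lines the medians of replicated groups. Within an organ, NA cells stand left of BP bulk and PBS bulk tissue. Alpha globin in lung reached 27719 CPM while Klf1 there stayed under 1 CPM.

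**Figure D2:**
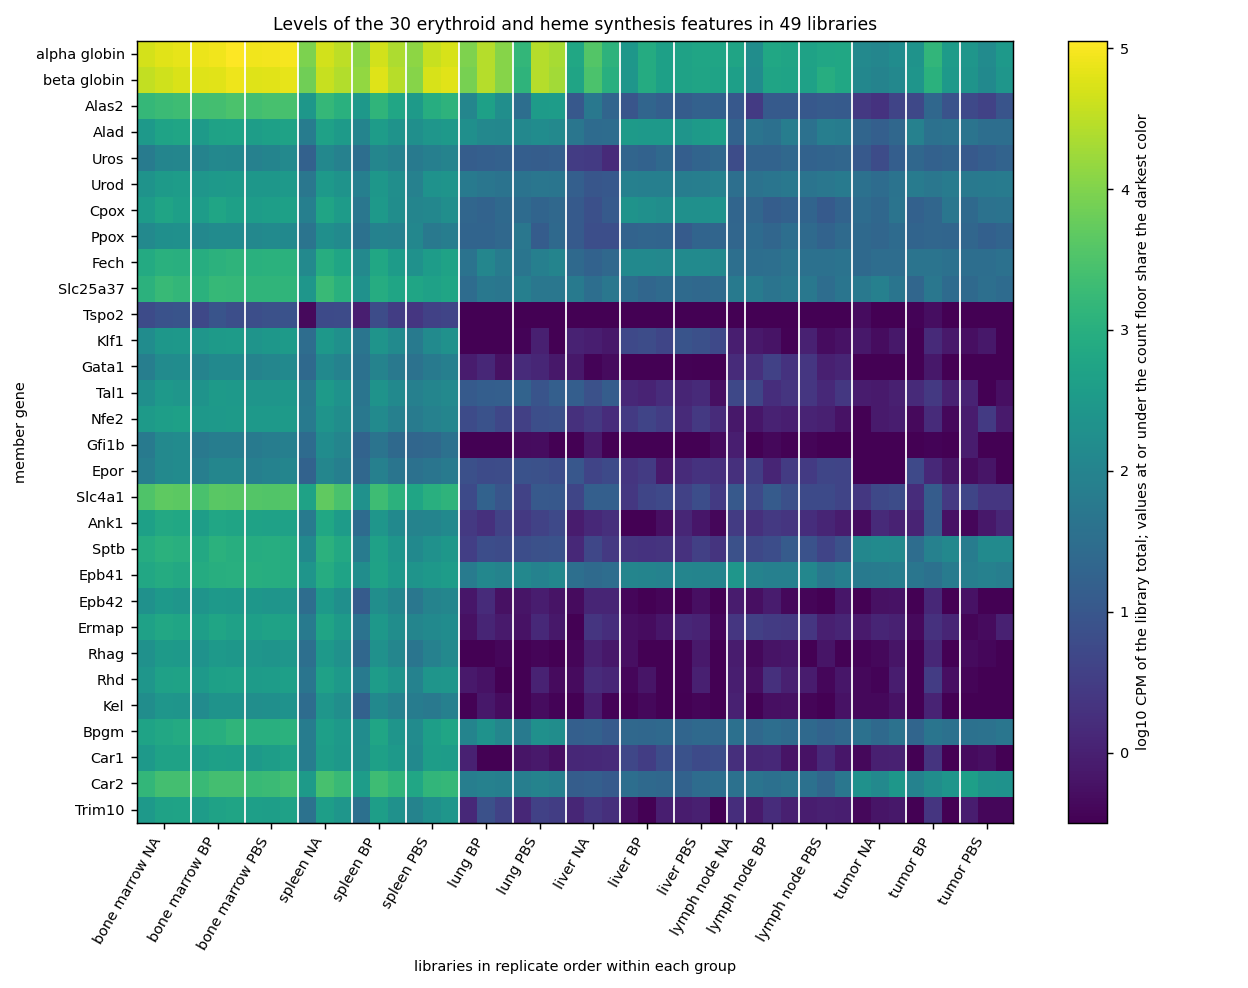
Level of each of the 30 features in each of 49 libraries, coloured by log CPM (rows are genes ordered by role, columns are libraries set in their groups). Values at or under the highest count floor of the libraries share the darkest color. Bone marrow and spleen columns are high for all roles, lung for the globins and Alas2, and liver for Alad, Cpox and Fech.

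BP tissue was compared with PBS tissue in each organ to see whether the particle injection moved these genes. None of the erythroid and heme genes passed the test in any organ (edgeR's quasi-likelihood test, Benjamini-Hochberg adjusted p under 0.05 over all genes tested). Of the 30 features, 30 were tested in bone marrow, 30 in spleen, 21 in liver, 24 in lymph node, 22 in lung and 20 in tumor, and 0 were called in each. Of all genes tested, 0% were called higher and 0% lower in each organ except liver, where 0.0236% were called higher. DESeq2 also called 0 members in each organ. At an unadjusted p under 0.05, edgeR found 1 member in liver, 1 in tumor and 0 in the other organs.

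The 2 exceptions were small or rested on 1 mouse. Nfe2, a subunit of the factor NF-E2, had 2.82, 4.30 and 3.05 CPM in livers of BP mice, against 1.44, 2.69 and 1.54 CPM in livers of PBS mice, with no overlap (log2 fold change 0.78 ± 0.32 SE, edgeR unadjusted p = 0.0369, adjusted p = 0.999). Beta globin in tumor had 244, 1103 and 326 CPM in BP mice, against 235, 135 and 269 CPM in PBS mice (1.45 ± 0.60, unadjusted p = 0.0463, adjusted p = 0.797). The tumor values of BP mice 1 and 3 lay within or near those of PBS mice, and mouse 2 stood above them.

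In bone marrow, 27 of the 30 estimates lay above 0, with a median log2 fold change of 0.11 against 0.00 for all genes tested. Their range was narrow, from -0.06 for Tspo2, an erythroid relative of the translocator protein Tspo, to 0.20 for Car2, a carbonic anhydrase. Alpha globin averaged 92108 ± 18317 CPM in BP and 89565 ± 4541 CPM in PBS bone marrow (SD, n = 3 each), a log2 fold change of 0.08 ± 0.18. Standard errors of 0.12 to 0.23 over the members in bone marrow make differences of that size not detectable.

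In spleen the estimates spread from -0.37 for alpha globin to 0.39 for Cpox, each with a standard error larger than itself. Alas2 had 290, 1333 and 614 CPM in BP spleens and 338, 915 and 1248 CPM in PBS spleens (log2 fold change -0.19 ± 0.69, edgeR adjusted p = 1). Slc4a1 had 200, 2154 and 1146 CPM in BP spleens and 571, 1009 and 1299 CPM in PBS spleens (0.28 ± 0.78, adjusted p = 1). BP mouse 1 was low and BP mouse 2 high for all 3 of these genes, and PBS mouse 1 was low. A test of whether the BP change in spleen differed from that in bone marrow called 0 of the 30 features (0% of all genes higher and 0% lower, 0 members at unadjusted p under 0.05, and 0 with DESeq2).

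In liver, lymph node, lung and tumor the estimates for alpha globin were -0.17 ± 0.31, -0.56 ± 0.56, -0.08 ± 0.97 and 1.51 ± 0.70. Values of BP and PBS mice did not overlap for 1 member in liver, higher in BP mice (6.15% of all genes), for 2 in lymph node, higher in BP mice (5.31%), and for 1 in tumor, lower in BP mice (3.74%). In the other organs and directions 0 members were free of overlap, against 1.14 to 5.28% of all genes. Ermap, an erythroid membrane protein, was among those of lymph node, with 3.57, 2.99 and 2.61 CPM in BP mice, against 2.42, 0.980 and 1.21 CPM in PBS mice (0.86 ± 0.40, edgeR adjusted p = 0.866).

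**Figure D3:**
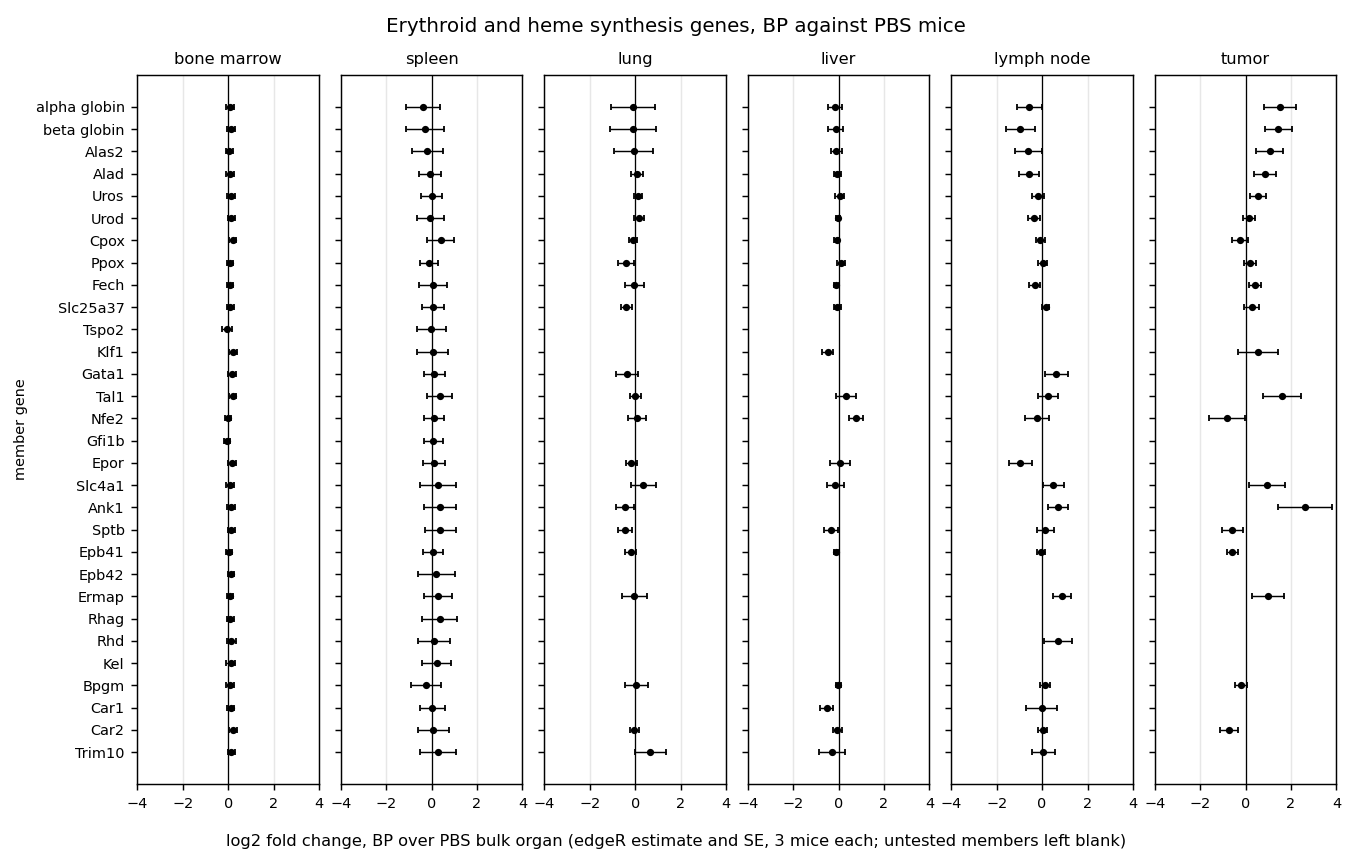
Log2 fold changes of BP against PBS bulk tissue (edgeR estimate with its standard error as the bar) for the features tested in each organ. Estimates in bone marrow lie close to 0, and those in spleen, lung and tumor have wide bars; none passed an adjusted p of 0.05.

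NA cells were compared with the bulk tissue of the same BP mice to see which transcripts the magnetically held cells carried. In spleen, with the mouse as a block in the fit, 8 of 9 membrane genes rose, and neither globin passed the test with all 3 mice. Without regard to the animal, edgeR called 0 of 30 members in spleen (20.2% of all genes higher and 22% lower, 1 member at unadjusted p under 0.05, and 1 with DESeq2). The 3 spleens differed widely from each other in both fractions, and the pairs shared their mouse, so the fit with the mouse as a block is given beside it. That fit called 16 of 30 members higher (26.8% of all genes) and 0 lower (27.2%), with a median log2 fold change of 0.54 over the 30 members and -0.05 over all genes.

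By role, the blocked fit called 8 of 9 membrane genes, 4 of 9 heme and mitochondrial iron genes (Tspo2 is counted among them), 3 of 6 transcription factors and receptors, 1 of 4 other red cell enzymes and 0 of 2 globins. Slc4a1 had 498, 4957 and 2909 CPM in NA cells of spleen, against 200, 2154 and 1146 CPM in the bulk spleens of the same mice (log2 fold change 1.46 ± 0.11 with the block, edgeR adjusted p = 0.000121; 1.43 ± 1.04 and 0.31 without it). Sptb, beta spectrin of the membrane skeleton, had 140, 1191 and 714 CPM in NA cells and 65.8, 488 and 249 CPM in bulk spleen (1.48 ± 0.13, adjusted p = 0.000229 with the block). Each mouse had more than its own bulk tissue, although the groups overlapped because mouse 1 was low in both fractions.

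Ank1, the ankyrin that ties spectrin to band 3, had 58.7, 657 and 356 CPM in NA cells of spleen and 27.4, 262 and 136 CPM in bulk spleen (1.45 ± 0.12, edgeR adjusted p = 0.000161 with the block). Epb42, Kel, Ermap, Epb41 and Rhag of the same group followed with log2 fold changes of 1.12, 1.09, 1.06, 0.92 and 0.86 in that fit. Rhd, a blood group protein of the Rh family, was the membrane gene that was not called, at 0.36 ± 0.18 (adjusted p = 0.13 with the block). It had 45.3, 488 and 312 CPM in NA cells, against 57.7, 379 and 222 CPM in bulk spleen, and so was lower in mouse 1 and higher in mice 2 and 3.

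Among the regulators, Gfi1b, a repressor needed for red cell and platelet precursors (ENSMUSG00000026815, chr2:28609450-28621982, GRCm38), had the highest estimate of all members. It had 28.0, 158 and 108 CPM in NA cells of spleen, against 18.4, 43.8 and 25.4 CPM in bulk spleen (1.74 ± 0.27, edgeR adjusted p = 0.002 with the block; 1.93 ± 0.68 and 0.0593 without it). Nfe2 and Tal1 also rose with the block, by 0.82 ± 0.18 and 0.66 ± 0.13. Klf1 had 31.1, 288 and 198 CPM in NA cells and 45.0, 237 and 148 CPM in bulk spleen (0.26 ± 0.19, adjusted p = 0.3 with the block), and Gata1 and Epor, the erythropoietin receptor, did not pass either (adjusted p = 0.178 and 0.0831).

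In the heme group, Cpox (1.06 ± 0.13), Slc25a37, the mitochondrial iron importer mitoferrin (0.95 ± 0.16), Ppox (0.83 ± 0.15) and Fech (0.58 ± 0.16) rose in NA cells of spleen with the block. Alas2 had 270, 1583 and 1085 CPM in NA cells and 290, 1333 and 614 CPM in bulk spleen (0.50 ± 0.19, edgeR adjusted p = 0.0626 with the block). Car2 was the enzyme called, at 0.41 ± 0.14 (adjusted p = 0.0478). Alas2 thus missed the threshold narrowly and Car2 passed it narrowly.

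In the same fit neither globin was called, and whether the globins and the membrane genes changed unequally was not tested over the group. Alpha globin had 8914, 46917 and 32090 CPM in NA cells of spleen, against 12138, 47606 and 23356 CPM in bulk spleen (0.17 ± 0.18, edgeR adjusted p = 0.456 with the block). Beta globin had 7015, 38670 and 26356 CPM in NA cells, against 14426, 61070 and 28846 CPM in bulk spleen (-0.43 ± 0.18, adjusted p = 0.0841). These calls depended on the mice: with the block and without mouse 1 alpha globin was called higher (0.42, edgeR adjusted p = 0.00369), and without mouse 3 beta globin was called lower (-0.71, adjusted p = 0.0151). By CPM alone, 15 members were higher in NA cells than in bulk spleen in all 3 mice, and 2 were lower in all 3. The same count was not taken over all genes, so these numbers are no result about the members.

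Other markers moved beside these members in spleen. The dissociation response was higher in 10 of 10 genes with either fit, 12 cell cycle genes summed to 844 to 4648 CPM in NA cells against 711 to 2914 CPM in bulk spleen (6 of 12 higher with the block), and neutrophil genes (12) to 2604 to 5725 CPM against 1080 to 3453 CPM (9 of 12 higher with the block). Mast cell genes (8) summed to 176 to 249 CPM in NA cells, against 38.6 to 46.6 CPM in bulk spleen (3 higher and 1 lower of 7 tested, with either fit). Most of that sum was Hdc, at 122 to 176 CPM against 5.32 to 9.05 CPM, and Kit, at 43.5 to 60.4 CPM against 22.9 to 28.1 CPM. Of the mast cell proteases, Cma1 averaged 1.84 CPM in NA cells and 3.49 CPM in bulk spleen. The others averaged higher in NA cells: Mcpt4 2.24 against 1.87 CPM, Tpsab1 1.41 against 0.088 CPM, Tpsb2 1.16 against 0.51 CPM and Cpa3 1.91 against 1.74 CPM. Macrophage genes (15) summed to 471 to 1504 CPM in NA cells and to 1697 to 2516 CPM in bulk spleen, with 9 of 15 lower with the block. B cell genes (7) summed to 1642 to 2415 CPM in NA cells and to 2841 to 4585 CPM in bulk spleen, with 5 of 7 lower and 1 higher with the block. T cell genes (7) summed to 224 to 278 CPM in NA cells and to 402 to 670 CPM in bulk spleen, with 6 of 7 lower with the block. Megakaryocyte and platelet genes (10), the other lineage of Gfi1b, had sums of 837, 398 and 574 CPM in NA cells of mice 1, 2 and 3, against 2327, 1013 and 678 CPM in bulk spleen, with 4 of 10 lower with the block. The part of these shifts in the erythroid result was not tested. Leaving out mouse 1, 2 or 3 from both groups, the blocked fit called 25, 14 and 15 members. Shares of all genes are not given for these fits, so the counts show only how the calls depend on the mice.

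In bone marrow, with the mouse as a block, both globins fell. Of the 9 membrane genes 7 did not pass the test, Epb41 fell and Ermap rose. Whether the globins and the membrane genes changed unequally was not tested over the group. edgeR without the block called 0 of 30 members (4.8% of all genes higher and 2.9% lower, 6 members at unadjusted p under 0.05, and 4 with DESeq2). With the mouse as a block it called 3 higher (11.7% of all genes) and 6 lower (8.28%). Alpha globin had 49630, 62601 and 70665 CPM in NA cells of bone marrow, against 77715, 85884 and 112727 CPM in the bulk bone marrow of the same mice, with no overlap (log2 fold change -0.60 ± 0.06, adjusted p = 0.00258 with the block; -0.61 ± 0.23 and 0.142 without it).

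Beta globin (-0.63 ± 0.05), Bpgm (-0.71 ± 0.08), Alas2 (-0.51 ± 0.07), Klf1 (-0.39 ± 0.10) and Epb41 (-0.35 ± 0.07) also fell in NA cells of bone marrow with the block. Bpgm, the mutase that makes bisphosphoglycerate and so tunes the oxygen affinity of hemoglobin, had 525, 681 and 784 CPM in NA cells, against 921, 979 and 1339 CPM in bulk bone marrow (edgeR adjusted p = 0.00376). Alas2 had 1567, 1900 and 2094 CPM in NA cells, against 2337, 2460 and 3078 CPM in bulk bone marrow (adjusted p = 0.00608). Every NA library lay below every BP bulk library for 5 members, both globins, Alas2, Bpgm and Epb41 (12.7% of all genes).

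Gfi1b (0.70 ± 0.18), Nfe2 (0.33 ± 0.06) and Ermap (0.22 ± 0.06) rose in NA cells of bone marrow with the block. Gfi1b had 59.2, 132 and 152 CPM in NA cells and 55.9, 71.6 and 70.3 CPM in bulk bone marrow (edgeR adjusted p = 0.0409), so that mouse 1 hardly differed. Slc4a1 had 3381, 4814 and 4437 CPM in NA cells and 2842, 4210 and 4043 CPM in bulk bone marrow (0.19 ± 0.06, adjusted p = 0.0661 with the block). Leaving out mouse 1, 2 or 3 from both groups, the blocked fit called 14, 4 and 4 members, given without the shares of all genes. The calls of alpha globin, beta globin, Bpgm and Alas2 held each time, with edgeR adjusted p of at most 0.0463. The dissociation response was higher in 10 of 10 genes here too. Mast cell genes summed to 365 to 382 CPM in NA cells of bone marrow, against 182 to 220 CPM in bulk bone marrow, of which Hdc alone made up 281 to 284 CPM against 97.9 to 114 CPM (1 higher and 2 lower of 4 tested with the block). T cell genes summed to 65.6 to 76.1 CPM against 82.0 to 94.1 CPM (3 of 7 lower with the block), B cell genes to 123 to 488 CPM against 187 to 590 CPM (4 of 7 lower) and adipocyte genes to 3.04 to 5.67 CPM against 9.28 to 16.7 CPM (the 1 gene tested was lower). Among megakaryocyte and platelet genes, the other lineage of Gfi1b, Itga2b had 89.3, 204 and 214 CPM in NA cells and 171, 187 and 134 CPM in bulk bone marrow. Ppbp had 101, 333 and 300 CPM against 305, 285 and 204 CPM. All listed genes of that lineage were lower in NA cells of mouse 1 and higher in mouse 3. In mouse 2 all but Gp9 were higher. The part of these shifts was not tested.

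Whether the NA change in spleen differed from that in bone marrow was tested in 1 fit of 24 libraries. Of the 30 estimates 29 lay above 0, with a median of 0.79 against 0.01 for all genes, but 0 members were called (2.63% of all genes higher and 1.43% lower by edgeR, 1 member at unadjusted p under 0.05), and 0 with DESeq2. With the block 0 were called as well (2.84% of all genes higher and 1.59% lower). Epb41 came nearest, with a difference of 1.31 ± 0.54 on the log2 scale (adjusted p = 0.187). By these fits the changes of the membrane genes in the 2 organs are not shown to differ. The fit without the block did not use the pairing of NA cells with bulk tissue of the same mouse. Each mouse had a higher CPM ratio of NA cells to bulk in spleen than in bone marrow, for all membrane genes except Rhd. Log2 ratios of Ank1 were 1.098, 1.327 and 1.387 in spleen and 0.216, 0.198 and 0.213 in bone marrow of mice 1, 2 and 3. Rhd in mouse 1 had -0.348 in spleen and -0.299 in bone marrow. Whether these ratios differed was not tested.

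**Figure D4:**
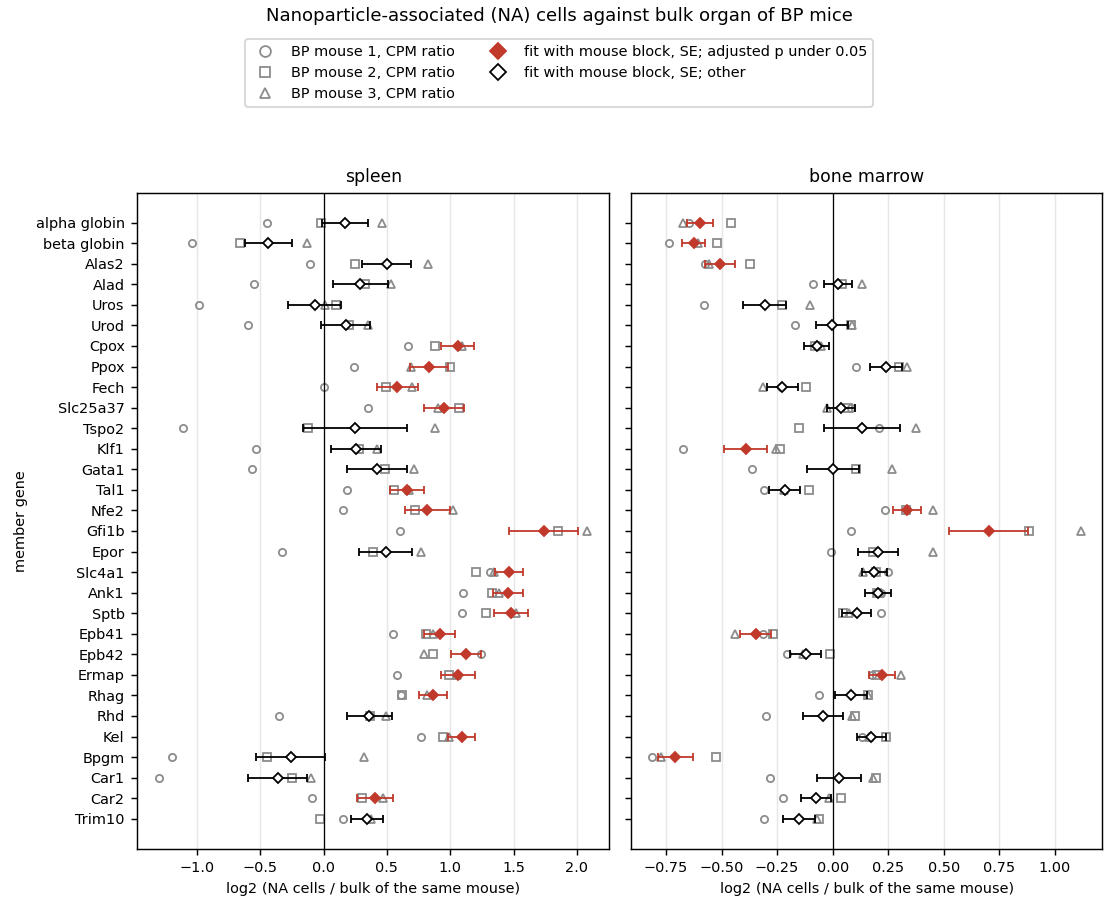
Log2 ratio of NA cells to BP bulk tissue for each member in spleen and bone marrow; points are the ratios of CPM in each of 3 mice and diamonds the edgeR estimates with the mouse as a block. The diamonds carry the TMM scaling and so sit higher than the points in spleen by 0.17 on the log2 scale; 8 of 9 membrane genes lie above 0 in spleen in each mouse, and the globins lie below 0 in bone marrow in each mouse.

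In liver many members rose and many fell in NA cells, as did many of all genes. Of 22 members tested, edgeR called 10 higher (37.3% of all genes) and 9 lower (37.5%), and with the mouse as a block also 10 higher (36.7%) and 9 lower (37%). These shares are not far from those of all genes, so the counts are no result about the members. By role, 2 of 2 globins and 3 of 4 membrane genes tested rose and Epb41 of the membrane group fell. Of 8 heme and mitochondrial iron genes tested, 6 fell and 2, Alas2 and Slc25a37, rose, and of the transcription factors and receptors Tal1 and Epor rose and Klf1 fell. Alpha globin had 660, 3725 and 1259 CPM in NA cells of liver, against 280, 837 and 445 CPM in bulk liver of the same mice (2.92 ± 0.76, adjusted p = 0.00653). The TMM scaling of this comparison moved the median of all genes by 0.81 on the log2 scale relative to library totals. By library totals alone the alpha globin change was 1.85, and 9 members were called higher and 11 lower, given without the shares of all genes.

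Tal1, a transcription factor of blood and endothelial cells, had 14.6, 7.6 and 13.6 CPM in NA cells of liver and 1.33, 1.16 and 1.64 CPM in bulk liver (3.9 ± 0.25, edgeR adjusted p = 1.15e-06). Epor rose by 2.54 ± 0.37, Trim10, a protein of late red cell precursors, by 2.50 ± 0.56, Slc4a1 by 2.46 ± 0.57, Alas2 by 1.96 ± 0.64 and Slc25a37 by 1.65 ± 0.17. The Alas2 call was lost without NA mouse 2, at 0.80 (adjusted p = 0.102), and without the bulk liver of BP mouse 1 (1.68, 0.0759) or 3 (1.98, 0.0559), and NA mouse 2 had the highest Alas2, at 53.4 CPM against 11 and 20.6 CPM in NA mice 1 and 3. Sptb (1.44 ± 0.55) was not called by library totals, at 0.46 (adjusted p = 0.328), and lost its call in 9 of 17 alternatives, among them leaving out NA mouse 2 (0.58, 0.266).

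Cpox had 12.0, 7.18 and 12.0 CPM in NA cells of liver, against 225, 193 and 170 CPM in bulk liver (-3.42 ± 0.18, edgeR adjusted p = 4.73e-07). Alad, which joins aminolevulinate molecules, had 49.4, 27.9 and 29.9 CPM in NA cells, against 345, 311 and 328 CPM in bulk liver (-2.40 ± 0.14, adjusted p = 6.32e-07). Uros (-2.22 ± 0.27), Urod (-1.91 ± 0.11), Fech (-1.75 ± 0.14) and Klf1 (-1.68 ± 0.28) fell as well, and all of these were lower in each of the 3 mice. The call of Ppox (-0.40, adjusted p = 0.027) was lost in 8 of 17 alternatives, with adjusted p up to 0.204, among them leaving out NA mouse 3 or the bulk liver of BP mouse 2 or 3, and with DESeq2 (0.0594). Hepatocyte genes (6) summed to 10074 to 19748 CPM in NA cells of liver, against 72577 to 88825 CPM in bulk liver, and 6 of 6 fell. Neutrophil genes summed to 70.2 to 190 CPM in NA cells and 30.2 to 45.0 CPM in bulk liver (11 of 11 tested rose), and megakaryocyte and platelet genes to 61.1 to 115 CPM against 9.45 to 15 CPM (5 of 5 rose). Macrophage genes summed to 814 to 2905 CPM in NA cells and 1126 to 1763 CPM in bulk liver (5 of 15 rose). The dissociation response summed to 5235 to 9261 CPM in NA cells and 101 to 159 CPM in bulk liver. The part of these shifts in the erythroid result was not tested.

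In tumor, beta globin passed the test as lower in NA cells, with a call that 8 of 16 alternatives lost, and 1 bulk tumor weighed on the estimate. edgeR called 1 of 21 members, beta globin, lower (3.16% of all genes) and 0 higher (5.86%), with 7 members at unadjusted p under 0.05 and 5 called by DESeq2. Beta globin had 117, 95.9 and 126 CPM in NA cells, against 244, 1103 and 326 CPM in bulk tumor (-2.24 ± 0.54, adjusted p = 0.0492; -1.94 ± 0.51 and 0.0773 with the block). Alpha globin had 133, 114 and 157 CPM in NA cells and 227, 1452 and 347 CPM in bulk tumor (-2.26 ± 0.65, adjusted p = 0.0704). With the mouse as a block 0 members were called (3.09% of all genes higher and 1.2% lower). In that fit, leaving out mouse 2 moved the beta globin estimate to -1.29 (edgeR adjusted p = 0.223), and leaving out mouse 3 moved it to -2.32 (0.128). Without the block, the call was lost when any 1 of the 3 NA libraries was left out (adjusted p = 0.141 to 0.181) and when the bulk tumor of BP mouse 1 was left out (-2.58, 0.0605). The unblocked call held without the bulk tumor of BP mouse 2 or 3.

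Other markers moved in the same tumor libraries. The dissociation response summed to 5255 to 8038 CPM in NA cells, against 325 to 621 CPM in bulk tumor (9 of 10 higher), and adipocyte genes (5) to 2.72 to 5.93 CPM against 104 to 2877 CPM (4 of 4 tested lower). Macrophage genes summed to 219 to 247 CPM in NA cells and 516 to 707 CPM in bulk tumor (6 of 12 tested lower), and neutrophil genes to 102 to 164 CPM against 250 to 2672 CPM (1 of 8 tested lower). Mammary epithelium genes (6) summed to 14792 to 16390 CPM in NA cells and 10028 to 19365 CPM in bulk tumor (1 of 6 higher). The hepatocyte gene Alb had 13.4, 427 and 269 CPM in NA cells and 167, 200 and 125 CPM in bulk tumor of mice 1, 2 and 3. The part of these shifts and levels in the globin result was not tested.

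The 1 library of NA cells from lymph node (BP mouse 2) held 545 CPM of alpha globin, against 653 CPM in that mouse's bulk lymph node, a difference with no replicate check.

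Bone marrow and spleen of PBS mice were compared to describe the members in the untreated state. All 30 features were higher in bone marrow in each of the 3 mice, a count that was not taken over all genes. The edgeR fit called 22 of 30 higher (23% of all genes) and 0 lower (24.4%). With the mouse as a block 26 were called higher (23.9% of all genes) and 0 lower (24.5%). The largest estimates were those of membrane genes and Nfe2, with Ank1 at 2.34 ± 0.24, Sptb at 2.31 ± 0.33, Slc4a1 at 2.12 ± 0.39 and Nfe2 at 2.10 ± 0.27. Slc4a1 had 3632, 3551 and 3650 CPM in PBS bone marrow, against 571, 1009 and 1299 CPM in PBS spleen (adjusted p = 0.00274).

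Both globins and both carbonic anhydrases were not called in either of these edgeR fits. Alpha globin had 84689, 90334 and 93672 CPM in PBS bone marrow and 13081, 39386 and 52399 CPM in PBS spleen, with no overlap (1.54 ± 0.65, edgeR adjusted p = 0.0847; 1.82 ± 0.84 and 0.116 with the block). Alpha globin was called higher by DESeq2 (1.55, adjusted p = 0.00176) and by library totals (1.36, edgeR adjusted p = 0.0478). It was also called without the spleen of PBS mouse 1 (1.09, edgeR adjusted p = 0.0013) and with the block without mouse 1 (1.15, 0.0468). Beta globin was called in no alternative (adjusted p of 0.195 to 0.591). Klf1 had 234, 278 and 332 CPM in PBS bone marrow and 60.9, 143 and 206 CPM in PBS spleen (1.23 ± 0.45, adjusted p = 0.0522; 1.44 ± 0.32 and 0.00963 with the block). The spleen of PBS mouse 1 was the lowest of the 3 for all of these genes. All 12 cell cycle genes and all 12 neutrophil genes were higher in bone marrow as well, and their part was not tested.

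Ratios of counts within a library do not depend on its total. They were formed after the values had been seen, with 8 two-sided exact tests in the family. Where both groups came from the same 3 mice, the exact test permuted signs within mice and cannot go below p = 0.25. Alpha globin counts per Slc4a1 count were 17.9, 9.46 and 11 in NA cells of spleen, against 60.8, 22.1 and 20.4 in bulk spleen of the same mice (12.8 ± 4.50 and 34.4 ± 22.8, SD, n = 3 each, exact paired permutation p = 0.25). In bone marrow they were 14.7, 13.0 and 15.9 in NA cells, against 27.3, 20.4 and 27.9 in bulk tissue (14.5 ± 1.47 and 25.2 ± 4.17, exact paired permutation p = 0.25). In both organs the groups did not overlap, each mouse was lower in NA cells, and the p could not be smaller. PBS bone marrow had 24.8 ± 1.29 and PBS spleen 34.1 ± 9.72 (SD, n = 3 each, exact paired permutation p = 0.5). Between BP and PBS bulk spleen, which are not paired and where the smallest p is 0.1, the ratio gave an exact permutation p of 1.

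Beta globin counts per alpha globin count were 0.787, 0.824 and 0.821 in NA cells of spleen, against 1.19, 1.28 and 1.24 in bulk spleen (0.811 ± 0.0207 and 1.24 ± 0.0471, SD, n = 3 each, exact paired permutation p = 0.25). In bone marrow the ratio was 0.713, 0.721 and 0.768 in NA cells and 0.760, 0.752 and 0.732 in bulk tissue (exact paired permutation p = 0.75). NA cells of spleen were thus close to bone marrow in this ratio, and bulk spleen of BP mice lay above both. PBS spleens had 0.829, 1.29 and 1.22, so the spleen of PBS mouse 1 also lay near the bone marrow values. The exact permutation p was 0.7 between BP and PBS spleens, which are not paired. Between bone marrow and spleen of PBS mice the exact paired permutation p was 0.25. Globin counts per Alas2 count were 53.9 to 59.0 in NA cells of spleen, 54.2 to 63.4 over all bone marrow libraries and 70.7 to 98.8 in bulk spleen.

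**Figure D5:**
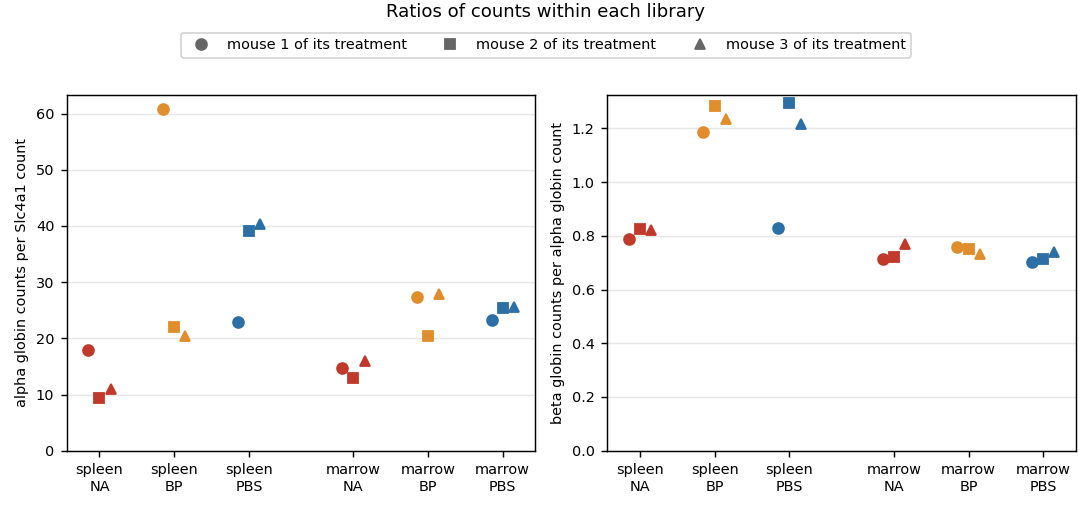
Alpha globin counts per Slc4a1 count and beta globin counts per alpha globin count in each library of bone marrow and spleen, by group, on linear axes. Points are mice. NA cells of spleen lie at 9.46 to 17.9 and at 0.787 to 0.824, below BP bulk spleen at 20.4 to 60.8 and 1.19 to 1.28.

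A wider list of 31 other erythroid and heme genes, none of them members, was read beside the 30 features, with 28 tested in bone marrow and spleen. In NA cells of spleen the blocked fit called 16 higher (26.8% of all genes) and 3 lower (27.2%), against 0 and 1 without the block. Tmcc2 (2.17), Zfpm1, the cofactor of Gata1 (1.77), Hemgn, a nuclear protein of red cell precursors (1.75), Dmtn, an actin bundling protein of the membrane skeleton (1.49), and Tmod1, which caps actin filaments there (1.32), had the 5 highest estimates among them. Bcl11a, the repressor of embryonic globin genes, fell by 1.39, Lmo2 by 0.59 and Bnip3l, the mitophagy receptor, by 0.49.

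In NA cells of bone marrow the same list gave 5 higher (11.7% of all genes) and 5 lower (8.28%) with the block, against 1 and 1 without it, and in NA cells of liver 11 higher (37.3% of all genes) and 11 lower (37.5%) of 24 tested. In liver, Tmcc2 rose by 4.46 and Aqp1, a water channel of red cells and vessels, by 3.99, while Pklr, pyruvate kinase of liver and red cells, fell by 4.87. Between BP and PBS bulk tissue, 0 of these genes were called in each of the 6 organs. In PBS mice 20 of 28 were higher in bone marrow than in spleen (23% of all genes) and 1, Bcl11a, was lower (-0.93).

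Some members overlap another gene on the opposite strand: Alas2 with Apex2, Cpox with Gpr15, Ppox with B4galt3, Sptb with Plekhg3, and Slc25a37, Ank1 and Epb41 with predicted genes. Whether the authors counted by strand is not given in the sources used here, so reads of these pairs cannot be told apart. The levels of these members carry that limit, and no other member shared exon bases with a gene of the other strand in the annotation used.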

How the data were processed

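RNA was sequenced from bulk organs and from magnetically separated cells (49 libraries). Per the submitters' processing notes, the build was mm10 and the tools RSEM 1.3.1, STAR 2.7.9a, cutadapt 3.5 and FastQC 0.11.9, with no settings named. The authors deposited 1 table of expected counts (estimated counts) per gene, of which 4.64 to 7.92% per library, zeros included, were not whole. Neither the strand setting nor the annotation release is given in the sources used here. Symbols, positions and transcripts came from GENCODE M21 (GRCm38), and promoters from RefSeq.

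Counts of the globin copies were summed, and expected counts were rounded to whole numbers. Levels are CPM of the library total. Tests used edgeR 4.0.16 in R 4.3.3 (two-sided quasi-likelihood test after TMM scaling and the filterByExpr filter at a count of 10, Benjamini-Hochberg adjustment over all genes tested, adjusted p under 0.05), fitted on the 6 libraries of each comparison, and the standard error is the size of the log2 fold change divided by the square root of F. The test across organs used 36 bulk libraries, or the 24 libraries of the 4 organs with NA cells. DESeq2 1.42.0, other scalings, no filter, unsummed globins, a spread shared over 48 libraries, a replicate block and leaving out libraries were alternatives, and the fits were tested on simulated counts.

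The members and lists were chosen with earlier results of these data known, and the ratios and the liver test across organs were added after seeing the data. Genes named are alpha globin, beta globin, Alas2, Klf1 and Slc4a1 in each comparison, members past the threshold with the largest changes, and examples chosen after their values were seen. NA cells and BP bulk tissue share their mouse per the labels, as do PBS organs, so the numbers pair them. Deviations from the group means correlated at 0.535, 0.687 and -0.105 in spleen and 0.126, 0.415 and 0.0957 in bone marrow for mice 1, 2 and 3. BP and PBS mice share only a number. Libraries of 1 group came from different mice. A difference of scaling between TMM and library totals moved the median of all genes by -0.15 (lymph node, BP against PBS), 0.17 (spleen NA cells), 0.81 (liver NA cells) and 0.27 (PBS bone marrow against spleen) on the log2 scale, and by under 0.1 elsewhere.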

Additional observations from a re-analysis of the deposited data

Results flagged for a closer look

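The change in NA cells of liver differed from that in the other organs for 11 of 30 members, a smaller share than among all genes, by a test of the difference added after seeing the data: the NA change in liver minus the mean NA change in bone marrow, spleen and tumor, in 1 fit of 24 libraries (edgeR, adjusted p under 0.05). It called 5 of 30 members higher (29.3% of all genes) and 6 of 30 lower (24.3%), so the counts are no result about the members. The differences, on the log2 scale, were 3.69 for alpha globin, 3.61 for beta globin, 2.47 for Alas2, 3.96 for Tal1 and 3.38 for Epor. They were -3.92 for Cpox, -2.14 for Alad, -1.97 for Uros, -1.87 for Urod, -1.81 for Fech and -1.3 for Epb41. By library totals 12 members were called, and by DESeq2 17.

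Hepatocyte genes summed to 10074 to 19748 CPM in NA cells of liver, against 72577 to 88825 CPM in bulk liver, and mitochondrial genes held 48.2 to 57.2% of counts against 5.67 to 7.06%. Their part in the difference was not tested. The members share libraries and 3 mice, so the 11 calls are not independent of each other.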

How the results depend on the processing

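The counts of members below are given without the shares of all genes in the same fits. They show how the calls depend on the processing and are no result about the members. Counts of members called between BP and PBS tissue stayed at 0 under each alternative run, except 1 in tumor with the spread shared over 48 libraries. For NA cells of bone marrow (0 called) the count was 4 with DESeq2, 1 with no filter, 1 with unsummed globins, 9 with the replicate block, 0 to 1 without 1 library, and 14, 4 and 4 with the block and without mouse 1, 2 or 3. For NA cells of spleen (0) it was 1 with DESeq2, 1 with no filter, 5 with the shared spread, 16 with the replicate block, 0 to 2 without 1 library, and 25, 14 and 15 with the block and without mouse 1, 2 or 3. For NA cells of tumor (1) it was 5 with DESeq2, 0 by library totals, 3 with no filter, 2 with unsummed globins, 5 with the shared spread, 0 with the replicate block, 0 to 4 without 1 library, and 0 to 1 with the block and without 1 mouse. The liver count (19) ran from 16 to 21 without 1 library, with 25 under no filter, and that of PBS bone marrow against spleen (22) from 19 to 27 without 1 library. The liver test across organs gave 17 with DESeq2, against 11. The cause was not tested.

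BP and PBS mice share only a number: same-numbered deviations correlated from -0.258 to 0.5 over the organs. With the replicate block, uncalled estimates changed sign for Klf1 (-0.072) and Slc4a1 (-0.22) in spleen and for alpha globin (0.52), beta globin (0.54) and Alas2 (0.36) in lung. The block also turned Klf1 (0.20) and Slc4a1 (0.20) in NA cells of tumor. No other call between BP and PBS changed with it.

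Leaving out 1 library or 1 pair, uncalled estimates changed sign within these ranges. For BP against PBS in bone marrow they were -0.17 to 0.22 (alpha globin), -0.10 to 0.26 (beta globin), -0.15 to 0.17 (Alas2) and -0.068 to 0.26 (Slc4a1). In spleen they were -1.14 to 0.11, -1.13 to 0.18, -1.04 to 0.30 and -0.65 to 0.78, with -0.66 to 0.54 for Klf1. In liver they were -0.65 to 0.14, -0.61 to 0.19, -0.37 to 0.15 and -0.41 to 0.25. In lung they were -0.77 to 0.63, -0.83 to 0.66, -0.86 to 0.38 and -0.24 to 0.72. In tumor they were -0.33 to 1.05 for Klf1 and -0.47 to 1.36 for Slc4a1. For NA cells they were -0.011 to 0.34 for Slc4a1 in bone marrow, -0.33 to 0.99 for alpha globin, -0.95 to 0.41 for beta globin, -0.034 to 1.38 for Alas2 and -0.20 to 1.10 for Klf1 in spleen, and -0.65 to 0.71 for Klf1 and -0.69 to 1.15 for Slc4a1 in tumor. With the block and without 1 mouse, alpha globin in NA cells of spleen gave -0.090, Klf1 in NA cells of tumor 1.12 and 0.32, and Slc4a1 there 0.089 and 0.91. Of 1423 alternatives run for 90 named results, 1225 left direction and call as they were. Depth of 9362264 to 19734849 counts was not limiting for the globins, while Gata1 and Gfi1b stayed under 1 CPM in liver and tumor libraries, and Gfi1b and Klf1 in lung.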
